A study of Mus musculus with 48 samples.

Results

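The nuclear-encoded genes of the mitochondrial respiratory chain were followed in RNA-seq counts of cultured mouse kidney slices. They were taken from the count table by symbol: those starting with Nduf, Uqcr, Atp5 or Cox4 to Cox8, and Sdha, Sdhb, Sdhc and Sdhd, with symbols holding -ps left out. Of the 55487 rows of the table, 107 matched and 9 of these were left out for -ps, which left 98 rows with 97 different symbols. By complex, these were 36 subunit genes of complex I, 8 complex I assembly factors (Ndufaf1 to Ndufaf8), 4 genes of complex II, 8 of complex III, 20 of complex IV and 18 of complex V, together with 4 processed pseudogenes. Ndufa4, its relative Ndufa4l2 and Cox7a2l were placed with complex IV. Atp5o stood in the table under 2 gene IDs, and the second of them (ENSMUSG00000116933) overlaps a neighbouring gene, so that its reads may be shared.

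The respiratory chain sits in the inner mitochondrial membrane. Complex I takes electrons from NADH, complex II from succinate, complex III passes them on to cytochrome c and complex IV to oxygen, while complexes I, III and IV pump protons that complex V uses to make ATP. Most subunits are encoded in the nucleus and a few in the mitochondrial genome, and the kidney tubule, the proximal tubule above all, is known for its dense mitochondria and its reliance on oxidative metabolism. Some subunits of complex IV have paralogues used in particular tissues or at low oxygen, such as Cox4i2 beside Cox4i1.

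Male mice of 2 inbred strains, C57BL/6J and DBA/2J (the founders of the BXD panel), gave the slices, and each of 16 groups of strain and condition held 3 libraries. The conditions were untreated control, tunicamycin (an inhibitor of protein glycosylation) and cyclosporin A (a calcineurin inhibitor with known toxicity to the kidney), each at 6 h and at 24 h, plus an ischemia model called normoxia and a reperfusion model called normoxia-hyperoxia, both 24 h by their titles. Drug doses, the oxygen level of the controls and when oxygen was switched are not stated, and the labels do not say whether the 3 libraries of a group came from separate mice, so p-values measure the spread between these libraries, which may be technical. The titles place the oxygen conditions in another portion of the study than the controls and drugs, so that oxygen condition and study portion cannot be told apart in any comparison of the oxygen groups with controls.

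The libraries held 5619309 to 25137581 counts (median 19.6 M). Fewest were in DBA/2J normoxia-hyperoxia replicate 2, and the next lowest total was 12384733. The kidney labels were matched by their markers, since all 8 proximal tubule markers had counts in every control and oxygen group. Levels below are counts as a share of library size, scaled with TMM factors over all 48 libraries (CPM), as mean ± SD with n = 3 where a mean is given. Fold changes are log2 differences from edgeR's quasi-likelihood test, averaged over both strains unless a strain is named, with a standard error (SE), and a gene was called at a Benjamini-Hochberg adjusted p under 0.05 over all genes tested. In bulk slices, fewer cells of a type and less RNA per cell cannot be told apart.

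In every fit, 91 of the 98 rows passed the filter on low counts. The other 7 were Cox7b2, Cox8b and Cox8c, paralogues known from other tissues that reached at most 2, 5 and 1 counts in a library, and the pseudogene rows Cox6c2, Ndufa11b, Ndufb4c and Ndufs6b. Per kilobase of annotated exon, the highest levels in C57BL/6J 6 h controls were those of Cox8a (727 ± 148 CPM per kb) and Atp5b (667 ± 56.1 CPM per kb). Cox8a is a small complex IV subunit and Atp5b the catalytic beta subunit of complex V. The next were Cox6a1 (638 ± 125 CPM per kb) and Atp5a1, the alpha subunit (613 ± 53.3 CPM per kb), and these 4 means differed by less than the largest of their SDs. In complex I, Ndufa1 was highest per kb (296 ± 55.0) and Ndufab1 lowest (9.41 ± 1.16), and the assembly factors ran from 4.31 ± 0.82 for Ndufaf2 to 15.8 ± 2.66 for Ndufaf8. Exon length was the union over all annotated transcripts, which lowers the per-kb level of genes with long alternative transcripts, such as Atp5l at 3.31 ± 0.59 CPM per kb.

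Summed over all 98 rows, the level in 6 h controls was 21000 ± 2590 CPM for C57BL/6J and 20980 ± 722 CPM for DBA/2J. At 24 h, it was 10010 ± 693 CPM in C57BL/6J controls and 12530 ± 1159 CPM in DBA/2J controls, 47.7% and 59.7% of the 6 h mean. Under normoxia, the C57BL/6J level was 22030 ± 665 CPM and the DBA/2J level 23610 ± 2283 CPM, and under normoxia-hyperoxia 18130 ± 675 and 17890 ± 988 CPM. By mean, the 24 h controls therefore stood lowest of the 4 undrugged conditions in both strains, with normoxia highest and normoxia-hyperoxia between them. The normoxia and 6 h control libraries overlapped in both strains. The drug groups followed the controls of their time, with 20320 ± 802 and 21330 ± 1570 CPM under tunicamycin at 6 h and 10680 ± 559 and 12830 ± 1705 CPM at 24 h in C57BL/6J and DBA/2J. Under cyclosporin A the sums were 19740 ± 2612 and 22710 ± 1252 CPM at 6 h, and 10460 ± 1029 and 12130 ± 1839 CPM at 24 h. At 6 h the cyclosporin A mean was below the control mean in C57BL/6J and above it in DBA/2J. The complexes moved by like amounts: in C57BL/6J, the 24 h control sum stood at 45.3% of the 6 h sum for complex I, 46% for II, 48.2% for III, 45.1% for IV and 50.1% for V, but at 72.4% for the assembly factors. In DBA/2J the same shares were 55.8%, 57.3%, 59.4%, 60.3% and 62.1%, and 73.5% for the assembly factors.

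**Figure D1:**
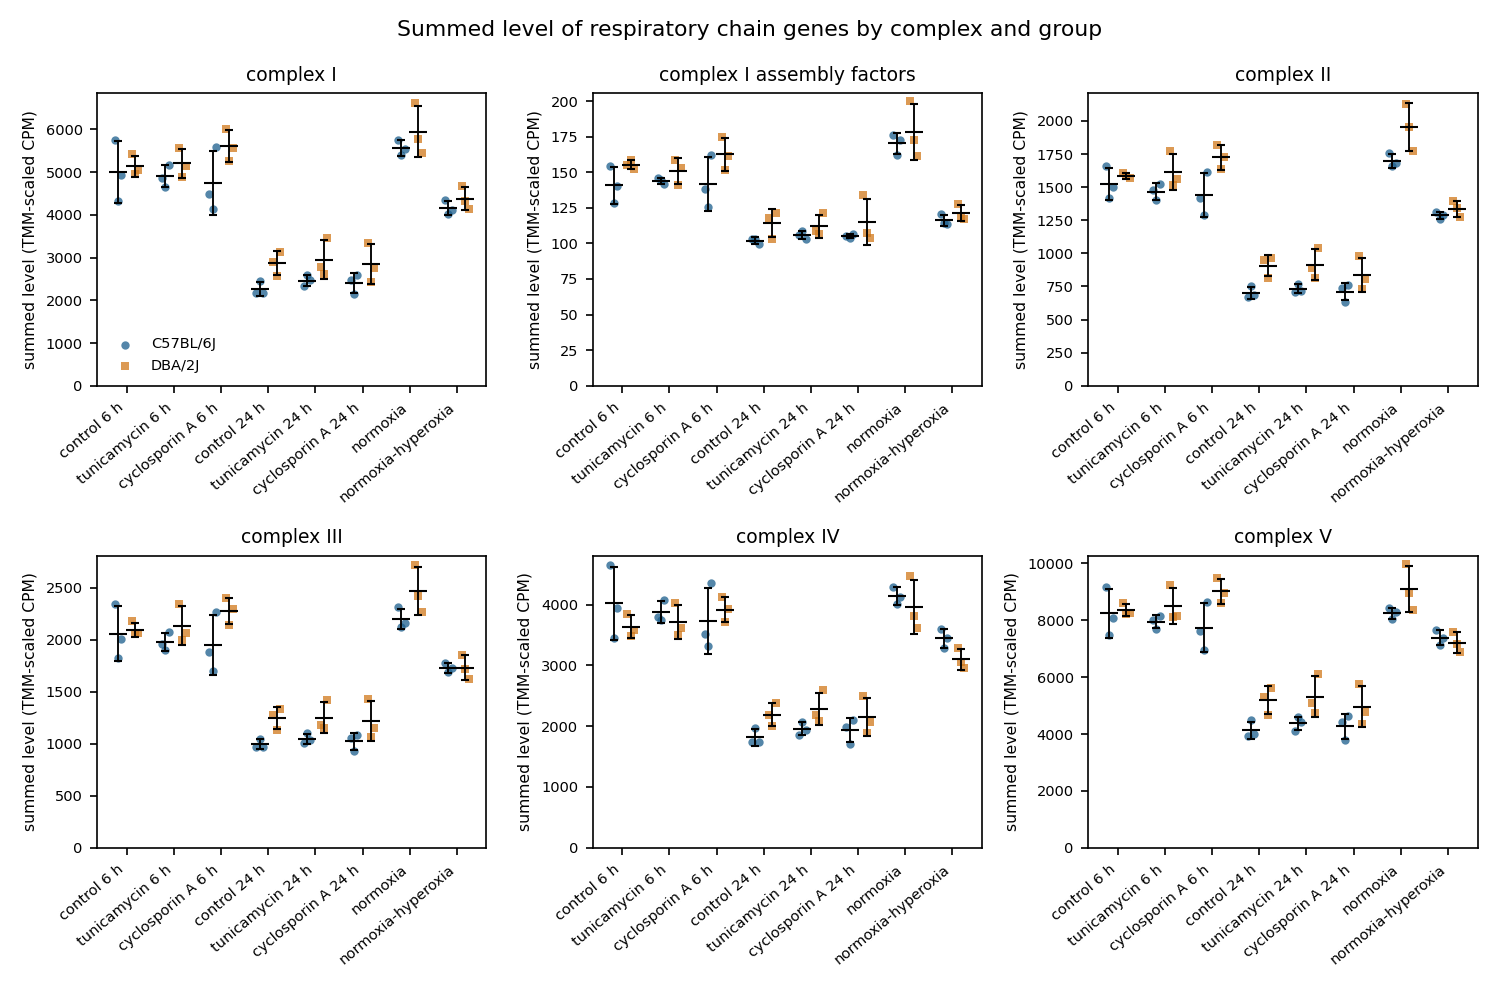
Summed level of each complex's genes (TMM-scaled CPM, y axis from 0) in every library, by condition on the x axis; circles are C57BL/6J, squares DBA/2J, and black bars are mean ± SD (n = 3). In each panel the 24 h control and 24 h drug libraries sit below all 6 h libraries of their strain, and the normoxia libraries stand above all 24 h control libraries of their strain.

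Time in culture lowered nearly the whole chain. From the 6 h to the 24 h controls, 87 of the 91 tested genes fell and 2 rose, with a median log2 fold change of -0.93, beside -0.02 over all 16962 genes tested. Of all genes, 72.0% were called in this comparison, 37.4% as lower and 34.7% as higher. All 36 complex I subunit genes, all 4 of complex II, all 8 of complex III and all 18 of complex V were called lower, as were 14 of 17 in complex IV and 7 of 8 assembly factors. The exceptions were Cox4i2 and Ndufa4l2, which rose, and the assembly factor Ndufaf4 (-0.10, SE 0.07, adjusted p = 0.22) and the muscle isoform Cox6a2 (0.19, SE 0.35, adjusted p = 0.64), which were not called. The sign for Cox6a2 turned to -0.04 without DBA/2J control 24 h replicate 1.

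Ndufs1, the largest core subunit of complex I and a carrier of iron-sulphur clusters, showed the fall in each library. Its C57BL/6J level was 273, 247 and 265 CPM at 6 h and 91.4, 103 and 91.7 CPM at 24 h. In DBA/2J it was 277, 285 and 268 CPM at 6 h and 128, 106 and 125 CPM at 24 h. The 2 times did not overlap in either strain, and the log2 fold change was -1.35 (SE 0.07, adjusted p = 4.4e-10). Ndufv1, which holds the NADH site, fell by 1.10 (SE 0.09). The largest fall in complex I was that of Ndufa1 (-1.38, SE 0.09), and the smallest that of Ndufa7 (-0.37).

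In complex II, Sdha, the flavoprotein that oxidises succinate, fell by 0.92 (SE 0.07), and Sdhb, the iron-sulphur subunit, by 1.10 (SE 0.09). In complex III, the core protein gene Uqcrc1 fell by 0.93 (SE 0.07) and the Rieske protein gene Uqcrfs1 by 1.03 (SE 0.07), while the small subunit gene Uqcr11 fell most (-1.31, SE 0.10). For complex IV, Cox4i1 fell by 0.82 (SE 0.08) and Cox5a by 0.77 (SE 0.07). In complex V, Atp5a1 fell by 0.87 (SE 0.07), Atp5b by 0.74 (SE 0.08) and Atp5k, a membrane-part subunit, by 1.24 (SE 0.11). Atp5b stood at 3080, 2609 and 2787 CPM in C57BL/6J 6 h controls and at 1491, 1726 and 1526 CPM at 24 h. The DBA/2J values were 2991, 2923 and 2967 CPM and then 1997, 1755 and 2088 CPM, so the times again did not overlap. Atp5g2, a copy of the c-ring subunit gene, fell least in complex V (-0.31, SE 0.07), whereas its paralogue Atp5g3 fell by 1.17 (SE 0.09).

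**Figure D2:**
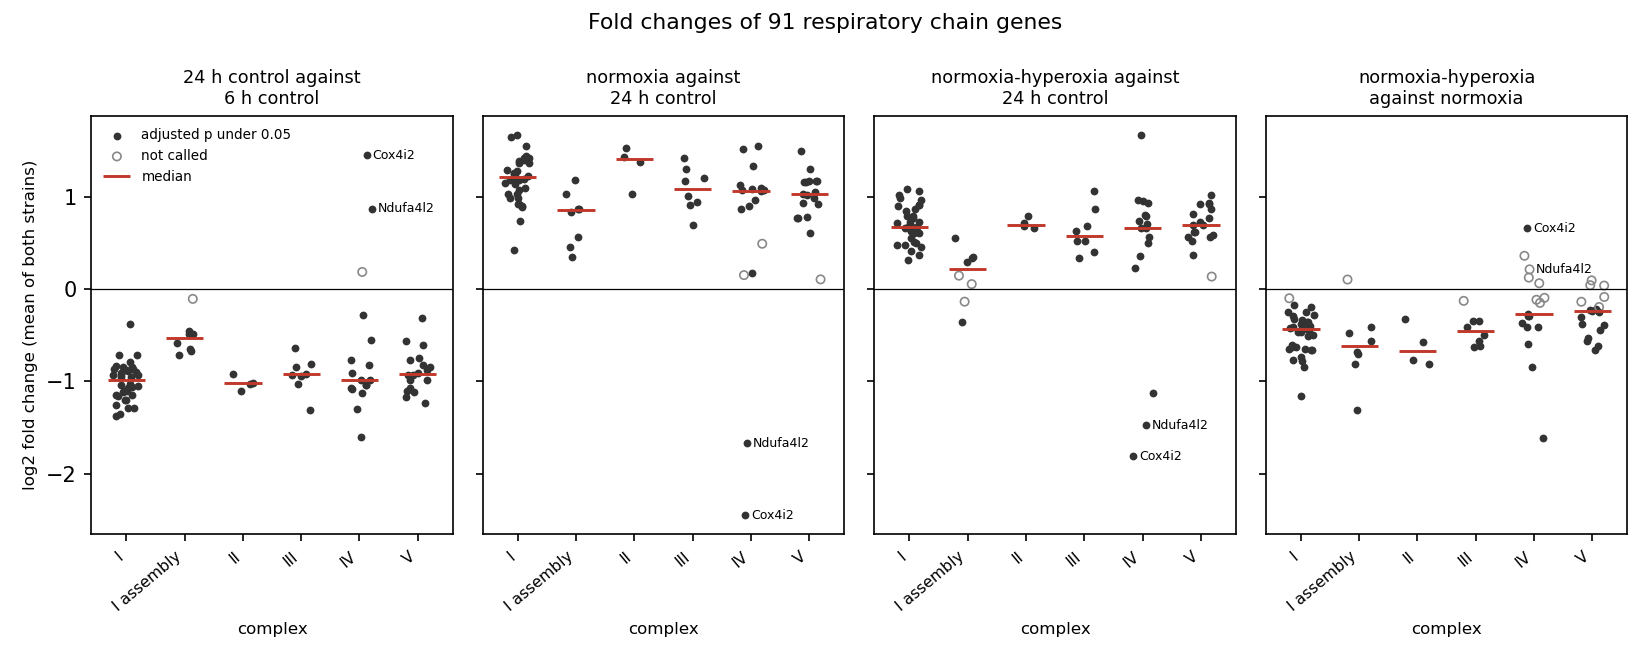
Log2 fold change (mean of both strains, y axis) of each of the 91 tested genes by complex (x axis) in 4 comparisons; filled points passed an adjusted p under 0.05, open points did not, and red bars are medians. In the left panel 87 filled points lie below 0 and in the next panel 86 lie above it, with Cox4i2 and Ndufa4l2 on the other side in both.

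The comparisons of normoxia, of normoxia-hyperoxia and of time all share the 24 h control libraries, so their values are given side by side and are not independent. Against 24 h controls, normoxia slices had 86 of 91 genes higher and 2 lower, with a median of 1.09 beside 0.05 over all genes. Of all 17375 genes tested, 82.0% were called, 42.4% as higher and 39.7% as lower. All subunit genes of complexes I, II and III, all 8 assembly factors and 17 of 18 complex V genes were higher, with medians of 1.22 for complex I, 1.42 for complex II, 1.09 for complex III, 1.07 for complex IV and 1.03 for complex V. The 2 lower genes were again Cox4i2 and Ndufa4l2. Atp5g2 (0.11, adjusted p = 0.14), Cox6a2 (0.50, adjusted p = 0.21) and Cox6b2 (0.16, adjusted p = 0.34) were not called. Cox6a2 was called without C57BL/6J normoxia replicate 1 (0.72, adjusted p = 0.047), and the sign for Cox6b2, a testis-type paralogue of Cox6b1, turned to -0.12 when counts were scaled by library totals alone.

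The largest increases were in Ndufb4 (1.68, SE 0.10), a membrane-arm subunit of complex I, and Ndufs7 (1.65, SE 0.08), an iron-sulphur subunit beside the quinone site. Ndufb4 stood at 25.0, 28.2 and 24.4 CPM in C57BL/6J normoxia slices, against 7.92, 7.92 and 7.63 CPM in the 24 h controls. In DBA/2J it stood at 33.3, 24.4 and 24.1 CPM against 9.53, 7.51 and 11.04 CPM, with no overlap in either strain. Sdhd, a membrane anchor of complex II, rose by 1.54 (SE 0.08), Ndufa4 by 1.53 (SE 0.07), Atp5g3 by 1.51 (SE 0.07) and Uqcr11 by 1.43 (SE 0.08). Ndufs1, at 280, 295 and 280 CPM in C57BL/6J and 359, 333 and 298 CPM in DBA/2J normoxia slices, rose by 1.56 (SE 0.06). Atp5b rose by 0.78 (SE 0.07), with 2741, 2545 and 2711 CPM in C57BL/6J and 3421, 3167 and 3012 CPM in DBA/2J. The other core genes rose by 0.88 (Cox4i1) to 1.39 (Ndufv1 and Sdhb).

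Normoxia slices were also set against the 6 h controls, a comparison that differs in time as well as in study portion. There 32 of 91 genes were higher and 5 lower, with a median of 0.09 beside 0.02 over all genes, of which 65.8% were called, 32.9% as higher and 32.9% as lower. The share of members called was thus below that of all genes. Sdhd (0.48, SE 0.07), Ndufb4 (0.44, SE 0.10), Ndufaf6 (0.56, SE 0.12), Ndufa4 (0.37, SE 0.09), Atp5s (0.40, SE 0.08) and Uqcrc1 (0.34, SE 0.07) had the largest called increase of their groups. The 5 lower genes were Cox4i2 (-1.03, SE 0.23), Ndufa4l2 (-0.84, SE 0.16), Atp5e, the epsilon subunit (-0.25, SE 0.09), Atp5g2 (-0.24, SE 0.07) and Ndufaf5 (-0.23, SE 0.09). The Atp5e and Ndufaf5 calls were each lost without a single library, Atp5e in 4 of the 12 cases (adjusted p up to 0.085, without DBA/2J normoxia replicate 2) and Ndufaf5 in 9 (adjusted p up to 0.17, without C57BL/6J control 6 h replicate 2).

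Normoxia-hyperoxia slices stood between. Against 24 h controls, 83 of 91 genes were higher and 4 lower, with a median of 0.67 beside 0.00 over all genes, and 68.2% of all 17256 genes were called, 34.1% as higher. Without the shallow DBA/2J normoxia-hyperoxia replicate 2 the counts were again 83 and 4. All subunit genes of complexes I, II and III were higher, and the largest increase in complex III was in Uqcr11 (1.07, SE 0.08) and in complex V in Atp5k (1.03, SE 0.11). Ndufs1 stood at 207, 209 and 188 CPM in C57BL/6J and at 205, 205 and 192 CPM in DBA/2J, above every 24 h control and below every normoxia library of its strain. The lower genes were Cox4i2 (-1.81, SE 0.25), Ndufa4l2 (-1.47, SE 0.13), Cox6a2 (-1.13, SE 0.42) and Ndufaf4 (-0.36, SE 0.08). The Cox6a2 call was lost in 5 of 12 fits, each made without a single library, with the highest adjusted p, 0.077, without DBA/2J control 24 h replicate 1.

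Compared with normoxia directly, normoxia-hyperoxia had 74 of 91 genes lower and 1 higher, with a median of -0.40 beside 0.02, and 73.5% of all 17228 genes were called, 36.5% as lower. Complex II (median -0.67) and the assembly factors (-0.62) fell most, and complex V (-0.24) and complex IV (-0.26) least. In complex V, 12 of 18 genes were called lower, and in complex IV 9 of 17. Among single genes, Cox6a2 fell by 1.61 (SE 0.40) at a very low level, with 1, 5 and 1 counts in the C57BL/6J normoxia-hyperoxia libraries. Ndufaf6 fell by 1.31 (SE 0.12), Ndufb4 by 1.16 (SE 0.09), Ndufa4 by 0.85 (SE 0.07), Sdhd by 0.81 (SE 0.08), Atp5s by 0.66 (SE 0.09) and Uqcrc2 by 0.63 (SE 0.06). Atp5k (-0.13, adjusted p = 0.14), Cox7b (-0.09, adjusted p = 0.25) and Atp5e (0.10, adjusted p = 0.21) were not called. In both strains, 77 of the 91 genes had a normoxia-hyperoxia mean above that of the 24 h controls and below that of normoxia. Cox4i2, with the reverse order, is not among them. For 78 of the 91, each 24 h control library lay below every 6 h control, normoxia and normoxia-hyperoxia library of its strain, in both strains.

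The assembly factors, which help build complex I without staying in it, did not all move in step. Their median was -0.53 with time, and against 24 h controls 0.86 under normoxia and 0.23 under normoxia-hyperoxia, each nearer 0 than the median over all members. Between the oxygen conditions it was farther from 0 than that median, as given above. The difference between assembly factors and subunits was not tested. Ndufaf4 stood at 27.1, 27.01 and 25.4 CPM in C57BL/6J 24 h controls, 34, 32.3 and 34.1 CPM under normoxia and 21.7, 20.3 and 21.2 CPM under normoxia-hyperoxia. The 3 conditions did not overlap in C57BL/6J, with normoxia-hyperoxia lowest. In DBA/2J, the values were 31.9, 25.13 and 31.96 CPM, then 41.2, 35.4 and 32.1 CPM, then 24.8, 20.1 and 23.3 CPM, in the same order without overlap. Ndufaf6 stood at 13.3, 13.1 and 15.2 CPM under normoxia in C57BL/6J and at 17.6, 14.5 and 11.2 CPM in DBA/2J, and at 5.18 to 6.87 CPM in all 6 normoxia-hyperoxia libraries, where it did not differ from the 24 h controls beyond their spread (-0.13, SE 0.13, adjusted p = 0.36). Ndufaf1 (0.06, SE 0.10, adjusted p = 0.63) and Ndufaf2 (0.15, SE 0.09, adjusted p = 0.16) were likewise not called in that comparison.

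Cox4i2 and Ndufa4l2 ran against the rest of the chain. Cox4i2 (chromosome 2, 152754173 to 152765037, GRCm38) is the paralogue of the regulatory subunit Cox4i1 and is known to be raised at low oxygen in some tissues. Ndufa4l2 (chromosome 10, 127514967 to 127517154) is a relative of Ndufa4 and a known target of the hypoxia-inducible factor HIF-1. Cox4i2 stood at 1.72, 1.35 and 1.42 CPM in C57BL/6J 6 h controls and rose to 2.77, 4.18 and 3.38 CPM at 24 h. Normoxia slices had 1.18, 0.96 and 1.43 CPM and normoxia-hyperoxia slices 2.27, 1.56 and 1.69 CPM. The C57BL/6J 24 h controls lay above every library of the other 3 conditions.

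In DBA/2J, Cox4i2 stood at 1.39, 1.48 and 0.855 CPM at 6 h, 3.18, 5.96 and 3.54 CPM at 24 h, 0.497, 0.276 and 0.355 CPM under normoxia and 0.352, 1.05 and 0.759 CPM under normoxia-hyperoxia. These lowest values rest on 5 to 15 counts per library. The log2 fold change was 1.46 with time (SE 0.21, adjusted p = 2e-05), -2.45 under normoxia (SE 0.23, adjusted p = 6.1e-08) and -1.81 under normoxia-hyperoxia (adjusted p = 1.3e-05). Between the oxygen conditions it was 0.66 higher in normoxia-hyperoxia (SE 0.28, adjusted p = 0.047), a call lost in 8 of the 12 fits without a library (adjusted p up to 0.15, without DBA/2J normoxia-hyperoxia replicate 3) and under 3 other settings (adjusted p of 0.051 to 0.083).

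Ndufa4l2 had 7.26, 5.26 and 6.82 CPM in C57BL/6J 6 h controls, 10.2, 13.3 and 12.3 CPM at 24 h, 5.49, 3.75 and 4.23 CPM under normoxia and 3.97, 5.23 and 3.70 CPM under normoxia-hyperoxia. In DBA/2J it had 8.27, 6.33 and 8.09 CPM, then 13.04, 15.4 and 14.2 CPM, then 2.40, 3.70 and 4.34 CPM, and 4.402, 6.47 and 5.01 CPM. The 24 h controls lay above all other libraries of their strain among these conditions. The fold change was 0.88 with time (SE 0.11, adjusted p = 6.5e-06) and -1.67 under normoxia (SE 0.14, adjusted p = 1.6e-08). Against its partner Ndufa4, the share of Ndufa4l2 in the pair's level per kb went from 2.58% ± 0.22 at 6 h to 10.8% ± 1.12 at 24 h in C57BL/6J, and from 3.06% ± 0.26 to 10.1% ± 1.71 in DBA/2J. Under normoxia it was 1.402% ± 0.15 and 1.11% ± 0.40. The same share for Cox4i2 beside Cox4i1 went from 0.447% ± 0.021 to 2.04% ± 0.24 in C57BL/6J with time and was 0.361% ± 0.075 under normoxia. In kidney both genes are known from vessel-wall cells, and the summed level of 8 pericyte and smooth muscle markers went from 423 to 506 CPM at 6 h to 276 to 292 CPM at 24 h in C57BL/6J and from 349 to 425 CPM to 205 to 242 CPM in DBA/2J, with 7 of 8 markers lower (median -0.88) and Kcnj8 higher (0.46, SE 0.16). Under normoxia the marker sum was 297 to 367 CPM in C57BL/6J and 137 to 168 CPM in DBA/2J, above the 24 h controls in C57BL/6J and below them in DBA/2J, with 2 markers higher and 2 lower over both strains (median 0.02). Under normoxia-hyperoxia it was 358 to 453 and 270 to 369 CPM, above the 24 h controls of each strain, with 4 higher and 1 lower (0.43). The part of these cells in the levels of Cox4i2 and Ndufa4l2 was not tested.

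**Figure D3:**
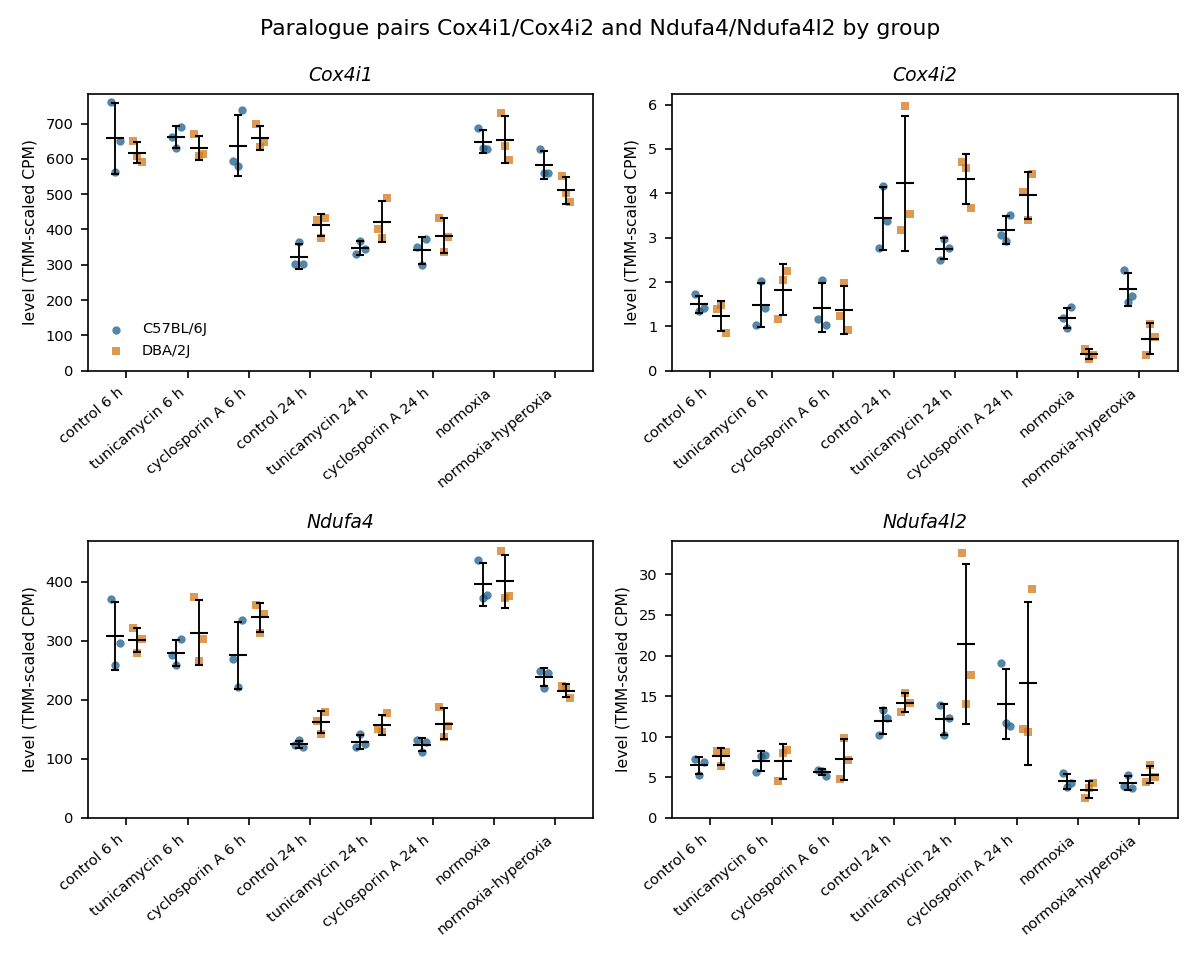
Level (TMM-scaled CPM, y axis from 0) of Cox4i1, Cox4i2, Ndufa4 and Ndufa4l2 in every library, by condition on the x axis; circles are C57BL/6J, squares DBA/2J, black bars mean ± SD (n = 3). Cox4i1 and Ndufa4 (left) are low and Cox4i2 and Ndufa4l2 (right) high in the 24 h controls, and all 4 show the reverse under normoxia.

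Of the other tissue isoforms, Cox7a1, the heart and muscle form of Cox7a2, had the largest fall with time in the whole set (-1.60, SE 0.17, adjusted p = 6.7e-07). Its C57BL/6J level was 12.2, 9.62 and 11.3 CPM at 6 h and 2.53, 4.26 and 2.64 CPM at 24 h, and in DBA/2J 11.7, 7.66 and 8.95 CPM and then 3.32, 2.96 and 4.70 CPM. Under normoxia it stood at 11.6, 12.8 and 12.6 CPM in C57BL/6J and 8.72, 7.52 and 7.002 CPM in DBA/2J (1.56, SE 0.14), and under normoxia-hyperoxia at 12.5, 12.1 and 13.3 CPM and 10.8, 6.64 and 10.02 CPM (1.67, SE 0.16). It did not differ between the oxygen conditions beyond its spread (0.13, SE 0.10, adjusted p = 0.27). Skeletal muscle markers (Ckm, Acta1, Myh1) summed to at most 1.00 CPM and fat markers to at most 0.796 CPM in any control or oxygen library, and Myh1 was at 0 in all control groups. The common forms Cox6a1, Cox6b1, Cox7a2, Cox7b and Cox8a fell by 0.98, 0.98, 1.04, 1.09 and 0.91 with time and rose by 1.13, 1.08, 1.10, 1.08 and 1.09 under normoxia. Cox6b2, at 1.83 to 5.84 CPM in these 24 libraries, fell with time (-0.55, SE 0.21, adjusted p = 0.027). That call was lost in 3 of 12 fits without a library, with -0.34 (adjusted p = 0.095) without C57BL/6J control 6 h replicate 1, and with library totals (-0.34, adjusted p = 0.15). Cox6b2 was 0.51 higher under normoxia-hyperoxia (SE 0.18, adjusted p = 0.025), a call lost in 6 of 12 fits without a library (0.39, adjusted p = 0.081, without C57BL/6J normoxia-hyperoxia replicate 2) and with library totals (0.34, adjusted p = 0.12).

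Stretches upstream of 4 genes that moved with the chain are shown, to set beside each other the promoters of widely expressed subunits and that of the muscle isoform. They come from RefSeq's promoter table (GRCm38.p6), cut to bases outside annotated exons, run 5′ to 3′ on the gene's strand, and mark in capitals the motif letters found. Cox6a1 is at chr5:115348982-115349129 (minus strand), Ndufb4 at chr16:37654454-37654618 (minus), Uqcr11 at chr10:80406831-80407071 (minus) and Cox7a1 at chr7:30183921-30184143 (plus).
Cox6a1: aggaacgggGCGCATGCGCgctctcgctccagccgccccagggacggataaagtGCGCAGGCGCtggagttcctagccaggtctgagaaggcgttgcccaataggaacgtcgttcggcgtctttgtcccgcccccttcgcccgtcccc
Ndufb4: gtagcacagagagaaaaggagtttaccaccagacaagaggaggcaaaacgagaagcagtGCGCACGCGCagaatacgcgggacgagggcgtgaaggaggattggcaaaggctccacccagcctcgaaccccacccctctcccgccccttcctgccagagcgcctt
Uqcr11: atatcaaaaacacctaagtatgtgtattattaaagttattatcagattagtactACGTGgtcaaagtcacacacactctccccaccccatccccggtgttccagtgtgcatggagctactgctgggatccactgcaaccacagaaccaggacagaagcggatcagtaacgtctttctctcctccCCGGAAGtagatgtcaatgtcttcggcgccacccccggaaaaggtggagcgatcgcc
Cox7a1: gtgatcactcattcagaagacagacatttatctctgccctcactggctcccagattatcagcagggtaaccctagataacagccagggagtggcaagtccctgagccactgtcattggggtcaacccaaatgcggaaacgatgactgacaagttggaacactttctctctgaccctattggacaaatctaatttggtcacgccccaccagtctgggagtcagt
Capitals in Cox6a1 and Ndufb4 mark matches to the motif of the nuclear respiratory factor NRF1, searched with the sixth letter free, and those in Uqcr11 mark ACGTG, the core of the hypoxia response element, and CCGGAAG, read by ETS factors such as GABP. Cox7a1, which had the largest fall with time and was among the largest rises under normoxia, held none of the letters searched in its stretch. Over the 250 bases before the start, 74 of 93 protein-coding symbols had an entry, and both strands were searched. Members were counted by symbol, over all its promoters (5 symbols had more than 1), and the whole table by promoter entry. Base composition was not matched between them. The NRF1 motif was in 14 of the 74 (18.9%), against 3.74% of all 32851 promoters in the table. CCGGAAG was in 14 (18.9%) against 6.91%, AAGGTCA, a core bound by estrogen-related receptors, in 5 (6.76%) against 4.08%, AAGATGGCG, read by YY1, in 1 (1.35%) against 0.606%, and ACGTG in 14 (18.9%) against 16.6%. The NRF1 motif and CCGGAAG occurred together in Atp5h, Cox6a1 and Sdhd. A match of letters describes the sequence and is not evidence of binding.

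Other genes of the pathway were read from fixed lists. The 12 citrate cycle genes fell with time (12 of 12, median -0.96), and 12 of 12 rose under both normoxia (1.18) and normoxia-hyperoxia (0.56). Of 13 electron carriers and entry-point genes, 11 fell with time, all 13 rose under normoxia, and under normoxia-hyperoxia 7 were higher and 2 lower. Coq8a, a kinase-like protein of coenzyme Q synthesis, moved most (-2.50, SE 0.14 with time and 3.17, SE 0.13 under normoxia). Among 38 assembly genes outside the symbol rule, 22 fell and 5 rose with time, and 30 were higher and 4 lower under normoxia. Sco1 and Sco2, copper carriers for complex IV, rose with time (0.61, SE 0.09 and 0.64, SE 0.09), the opposite direction to the subunits.

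Of 12 regulators of mitochondrial biogenesis, 6 fell and 6 rose with time. The coactivator gene Ppargc1a fell by 2.19 (SE 0.11) and the receptor gene Esrrg by 2.48 (SE 0.09), while Nrf1 (0.72, SE 0.07), Gabpa (0.41, SE 0.07) and Pprc1 (0.97, SE 0.11) rose. Under normoxia 7 were higher and 4 lower, with Esrra (1.396, SE 0.06) and Esrrg (2.26, SE 0.08) among the higher and Nrf1 (-1.20, SE 0.06) and Pprc1 (-2.79, SE 0.08) among the lower. Ppargc1a was higher too (0.72, SE 0.10). Under normoxia-hyperoxia 4 were higher and 6 lower, Esrrg (2.41, SE 0.09) and Ppargc1a (1.91, SE 0.10) leading the first and Nrf1 (-0.72, SE 0.06) and Pprc1 (-0.66, SE 0.07) the second. The Nrf1 transcript moved opposite to most subunit genes in each of these comparisons, and the part of these regulators in the subunit levels was not tested. The chain's own mitochondrial-genome subunits also fell with time (12 of 13, median -1.31) and rose under normoxia (13 of 13, median 3.78) and normoxia-hyperoxia (13 of 13, median 1.85). Their range under normoxia was wide, from 1.69 for mt-Nd4 to 5.33 for mt-Atp8, and these genes are known to have nuclear copies that can share or lose reads, so that their sizes are uncertain.

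Markers of kidney cell types moved too. The 8 proximal tubule markers summed to 3135 to 6194 CPM in C57BL/6J 6 h controls and 391.7 to 601.9 CPM at 24 h, and to 7050 to 8511 and 983 to 2216 CPM in DBA/2J. Under normoxia they summed to 6938 to 9799 CPM and 15710 to 17440 CPM, and under normoxia-hyperoxia to 176 to 220 CPM in C57BL/6J and 694 to 1011 CPM in DBA/2J. With time 8 of 8 fell (median -2.76), and under normoxia 8 of 8 rose (3.73), as the chain did. Under normoxia-hyperoxia 7 of 8 were below the 24 h controls (-1.24) while the chain genes were above them. The distal convoluted tubule pair Slc12a3 and Pvalb (2 of 2, median -2.20) and the 3 intercalated cell markers (3 of 3, -2.04) fell with time. Both lists were higher in both oxygen conditions than at 24 h (medians 1.73 and 2.33 under normoxia, 3.03 and 2.79 under normoxia-hyperoxia). Loop of Henle markers were lower with time (3 of 3, -1.38) and higher in both oxygen conditions (3 of 3, 1.81 and 1.87), and principal cell markers had medians of -1.39, 1.11 and 2.08.

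Podocyte markers had medians of -0.89 with time, -0.37 under normoxia and 0.91 under normoxia-hyperoxia, endothelial markers -0.31, -0.52 and 0.53, fibroblast markers -1.02, -0.63 and -0.47 and immune markers -0.22, 0.38 and 1.12. The summed immune level went against its median with time and under normoxia. In C57BL/6J it was 91.4 CPM in 6 h controls, 105.7 CPM in 24 h controls and 87.4 CPM under normoxia. In DBA/2J it was 94.1, 138.2 and 63.0 CPM. The part of all these cells, and that of the tubule cells, in the levels of the chain genes was not tested.

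**Figure D4:**
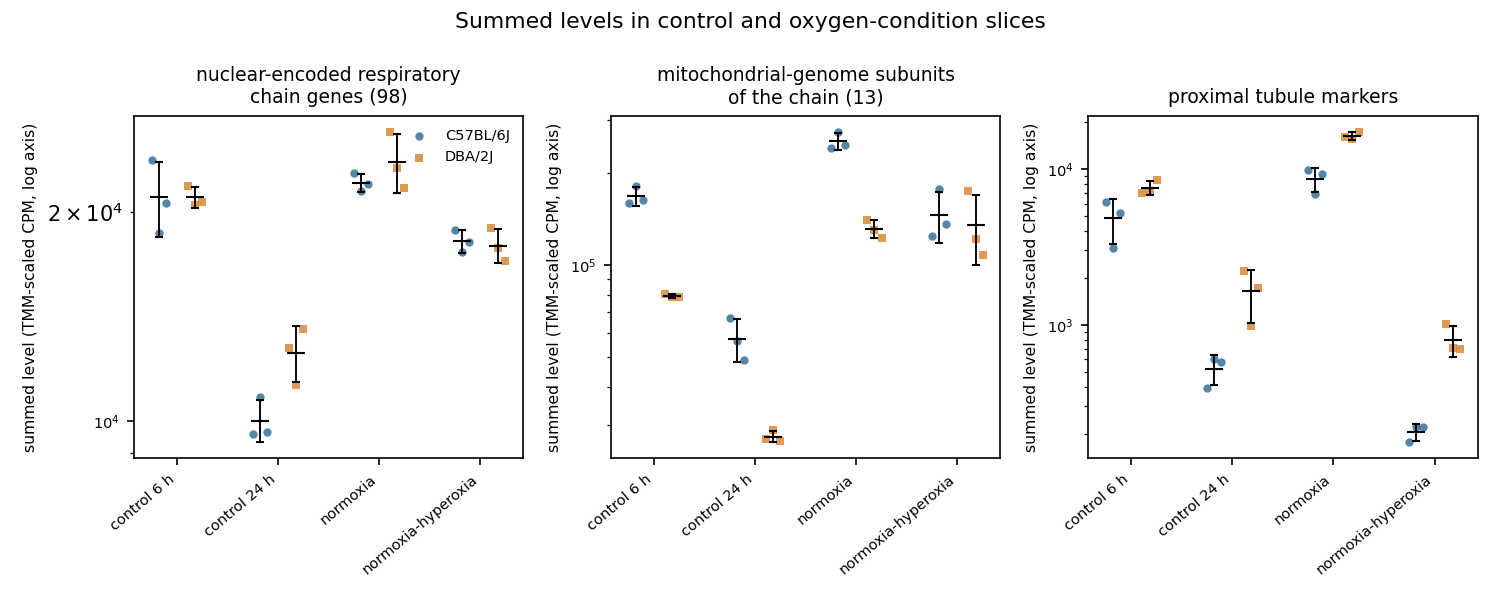
Summed levels (TMM-scaled CPM, log y axis) of the 98 nuclear-encoded chain rows, the 13 mitochondrial-genome subunits and 8 proximal tubule markers in every control and oxygen-condition library; circles are C57BL/6J, squares DBA/2J, black bars mean ± SD (n = 3). Under normoxia-hyperoxia the chain sums lie at 16990 to 18940 CPM, above all 24 h controls. The C57BL/6J marker sums lie at 176 to 220 CPM, below all 24 h controls of that strain, while the DBA/2J marker sums overlap those of their 24 h controls.

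Neither drug moved the chain as a whole. In edgeR's test, 0 of 91 genes were called under tunicamycin at 6 h, where 0.0% of all genes were called and 281 of 16551 had an unadjusted p under 0.05, 0 of them members. For cyclosporin A, 0 of 91 were called at 6 h and at 24 h (0.0% of all genes each), with 0 and 1 members at an unadjusted p under 0.05, and DESeq2 called 0 members in these 3 comparisons. Median log2 fold changes were -0.01 for tunicamycin and 0.00 for cyclosporin A at 6 h, and 0.07 and 0.05 at 24 h. Leaving Cox4i2, Ndufa4l2 and the low Cox6a2 and Cox6b2 aside, fold changes at 6 h stayed within -0.11 and 0.17.

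Tunicamycin at 24 h raised 1 member in the edgeR fit without a replicate block, Cox6a2 (chromosome 7, 128205435 to 128206387), the heart and muscle form of subunit 6A, where 1.38% of all 16905 genes were called and 9 members had an unadjusted p under 0.05. Its C57BL/6J level was 1.71, 2.69 and 1.15 CPM with tunicamycin and 0.281, 0.609 and 0.881 CPM in 24 h controls. In DBA/2J it was 3.82, 4.66 and 3.03 CPM and 1.23, 0.501 and 0.671 CPM. The treated libraries lay above all controls of their strain, and the log2 fold change was 1.99 (SE 0.30, adjusted p = 0.0061), with 1.81 to 2.22 when any library was left out. The number of members called higher was 2 with DESeq2 and 5 with a replicate block. Its widely expressed partner Cox6a1 was not called (0.15, SE 0.06, adjusted p = 0.30). The tunicamycin and cyclosporin A comparisons share their control libraries.

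The strains had like levels of the nuclear-encoded chain genes at 6 h, but not of the mitochondrial-genome subunits. The latter summed to 168400 ± 11760 CPM in C57BL/6J 6 h controls and 79400 ± 1178 CPM in DBA/2J ones. Nuclear copies leave these sizes uncertain, as said above. In the 6 h controls, 3 of the 91 nuclear-encoded genes were higher and 2 lower in DBA/2J (median 0.00), while 26.2% of all genes were called. Cox7a2l stood out. It encodes a factor of supercomplex assembly (SCAFI) and is known to carry a sequence difference between C57BL/6J and other inbred strains. Cox7a2l (chromosome 17, 83501918 to 83517330) had 104, 98.9 and 109 CPM in C57BL/6J and 56.3, 48.7 and 53.7 CPM in DBA/2J 6 h controls. At 24 h it had 78.0, 76.3 and 76.6 CPM against 53.1, 43.3 and 52.2 CPM, and over all 8 conditions 75.8 to 111 CPM against 41.5 to 63.6 CPM, with no overlap. The log2 difference, DBA/2J minus C57BL/6J, was -0.95 at 6 h (SE 0.09, adjusted p = 4.7e-06), -0.63 at 24 h (adjusted p = 0.00024), -0.54 under normoxia (adjusted p = 0.00043) and -0.88 under normoxia-hyperoxia (adjusted p = 1.6e-05). Reads of both strains were mapped to GRCm38, which derives from C57BL/6J, and any loss of DBA/2J reads to sequence differences was not tested.

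With the other conditions Cox7a2l moved little. It fell by 0.28 with time (SE 0.07, adjusted p = 0.0012), a call lost with library totals (-0.07, adjusted p = 0.34). Its difference under normoxia was 0.18 (SE 0.07, adjusted p = 0.025), a value that turned to -0.10 with counts scaled by library totals and lost its call under 4 other settings and without any of 4 libraries (0.12, adjusted p = 0.074, without DBA/2J normoxia replicate 1). Among the other genes that differed at 6 h were Cox5a (0.35, SE 0.10), Ndufaf5 (0.41, SE 0.12) and Cox6c (-0.36, SE 0.10). Each of these 3 calls was lost without some single library, with the highest adjusted p at 0.08 for Cox5a (without C57BL/6J control 6 h replicate 3), 0.10 for Ndufaf5 (without DBA/2J control 6 h replicate 2) and 0.081 for Cox6c (without DBA/2J control 6 h replicate 3). The number of members called at 6 h was 17 without C57BL/6J control 6 h replicate 1 and 1 without DBA/2J control 6 h replicate 2. With counts scaled by library totals, the split was 11 higher and 1 lower. Of the markers at 6 h, 5 of 8 of the proximal tubule were called higher in DBA/2J, and 4 of 4 endothelial, 2 of 3 podocyte, 2 of 3 principal cell and 2 of 3 intercalated cell markers lower, with 1 higher and 2 lower of 8 for pericytes and smooth muscle.

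**Figure D5:**
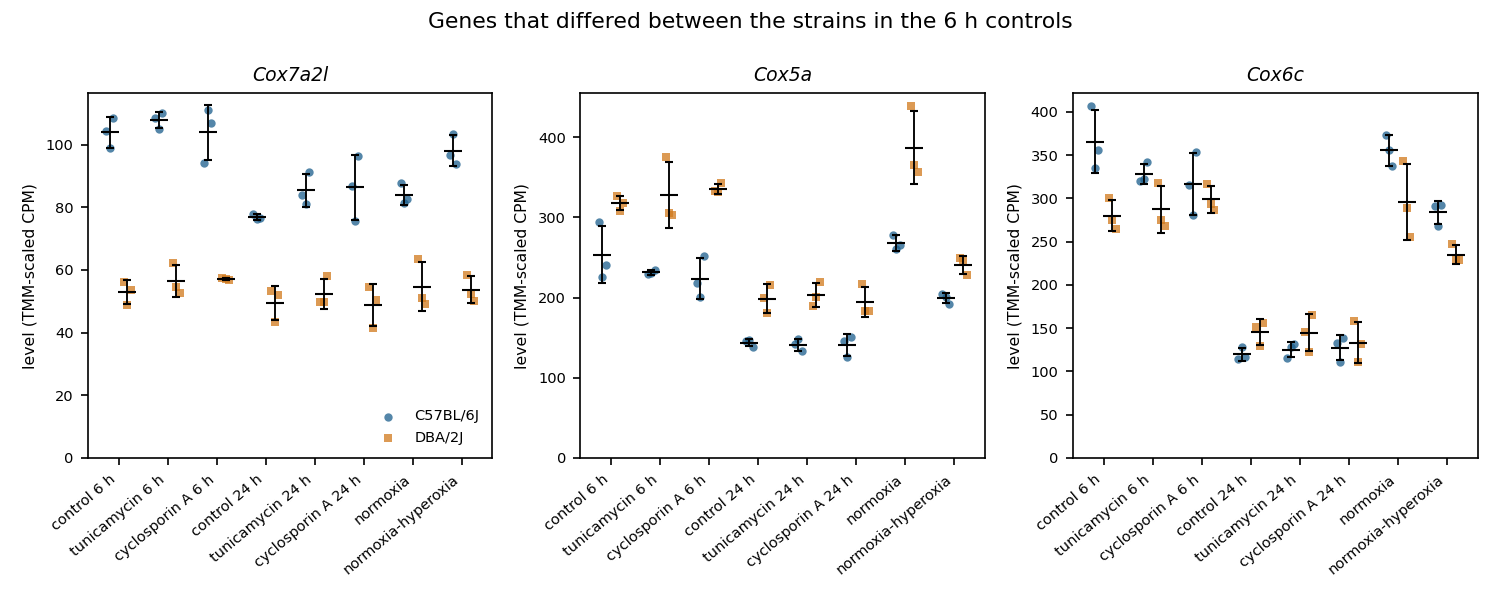
Level (TMM-scaled CPM, y axis from 0) of Cox7a2l, Cox5a and Cox6c in every library, by condition on the x axis; circles are C57BL/6J, squares DBA/2J, black bars mean ± SD (n = 3). Cox7a2l does not overlap between the strains in any condition, Cox5a is higher in DBA/2J without overlap in each, and all 3 DBA/2J control values of Cox6c lie below the C57BL/6J ones at 6 h and above them at 24 h.

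At 24 h, 41 members were higher and 1 lower in DBA/2J, with a median of 0.32 beside 0.04 over all genes, of which 22.2% were called and 13.9% as higher. All 4 complex II genes, 5 of 8 in complex III and 10 of 18 in complex V were among them, led by Atp5k (0.65, SE 0.15), Ndufaf5 (0.58, SE 0.12), Uqcr11 (0.57, SE 0.14), Ndufv1 (0.56, SE 0.13) and Ndufa10 (0.51, SE 0.11). The number called was 11 and 16 without DBA/2J control 24 h replicate 3 or 1, 13 and 12 without C57BL/6J control 24 h replicate 1 or 3, 24 without C57BL/6J control 6 h replicate 3 and 56 without DBA/2J control 24 h replicate 2. Proximal tubule markers were higher in DBA/2J at both times, in sums that did not overlap. At 24 h all 8 were called higher (median 1.83), as were both distal convoluted tubule markers (Pvalb 1.29, SE 0.22, and Slc12a3 0.94, SE 0.15), which were not called at 6 h. Of the other lists, 2 of 3 podocyte, 2 of 4 endothelial, 3 of 8 pericyte and smooth muscle, 1 of 3 fibroblast, 1 of 3 principal cell and 1 of 3 intercalated cell markers were lower, and 1 of 8 pericyte and smooth muscle and 1 of 4 immune markers higher, as was the 1 skeletal muscle marker tested. The part of these cells in the members' differences was not tested. The change with time itself was not called as different between the strains for any member (0 of 91 in edgeR's test, 0.69% of all genes called), although 37 had an unadjusted p under 0.05, 87 of 91 differences were above 0 (median 0.33 beside 0.05) and DESeq2 called 1. The shares of all genes at that unadjusted p or above 0 were not set beside these counts. The member closest to a call was Cox6c (0.66, SE 0.15, adjusted p = 0.059). In the same test, the 8 proximal tubule markers ran from 0.24 to 1.45 with 0 called, and of the distal convoluted tubule pair Slc12a3 was called (1.01, SE 0.22, adjusted p = 0.049) and Pvalb was not (1.03, adjusted p = 0.14). The other marker lists had 0 calls.

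Under normoxia, 20 members were higher and 7 lower in DBA/2J (46.8% of all genes called, 28.3% as higher and 18.5% as lower), a split that became 11 and 12 when counts were scaled by library totals. Cox5a (0.61, SE 0.09), Ndufaf5 (0.63, SE 0.12), Uqcrc1 (0.47, SE 0.09) and Ndufv1 (0.45, SE 0.09) were higher, and Cox4i2 (-1.55, SE 0.40) and Cox7a1 (-0.59, SE 0.14) lower. Of the 8 pericyte and smooth muscle markers, 5 were lower in DBA/2J and 1 higher (median -0.90), Acta2 by -1.85 (SE 0.25) and Rgs5 by -1.33 (SE 0.14) among the lower and Cspg4 (0.67, SE 0.12) the higher one. All 8 proximal tubule markers were higher (median 1.20) and all 3 of the loop of Henle lower (-1.89). Also lower were 3 of 3 fibroblast, 3 of 3 principal cell, 2 of 3 intercalated cell, 1 of 2 distal convoluted tubule, 2 of 3 podocyte, 3 of 4 endothelial and 2 of 4 immune markers. The part of these cells in the strain differences was not tested. Cox5a stood at 279, 260 and 265 CPM in C57BL/6J and at 439, 365 and 357 CPM in DBA/2J normoxia slices, without overlap. Under normoxia-hyperoxia, 4 were higher and 6 lower (25.7% of all genes called), which became 7 and 3 by library totals and 2 and 3 without DBA/2J normoxia-hyperoxia replicate 2. Cox4i2 (-1.48, SE 0.39, adjusted p = 0.012) and Atp5s (-0.57, SE 0.13) were lower. The Cox4i2 call was lost without DBA/2J normoxia-hyperoxia replicate 1 (-1.11, adjusted p = 0.069). Cox6a2 had 1, 5 and 1 counts in C57BL/6J and 12, 6 and 15 counts in DBA/2J (2.699, SE 0.65). In the same comparison, 7 of 8 proximal tubule markers (median 1.89) and 4 of 4 immune markers (0.77) were higher in DBA/2J. The lower ones were 1 of 8 pericyte and smooth muscle markers (Rgs5, -0.60, SE 0.14), 1 of 3 fibroblast and 2 of 3 principal cell markers, and their part in the members' differences was not tested.

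Whether the chain differed equally between normoxia slices and 24 h controls in both strains was also tested. The value tested was the difference of the strains' responses, DBA/2J minus C57BL/6J. It was negative and called for 11 of 91 members and positive for 0, with a median of -0.22 beside 0.03 over all genes, of which 17% were called, 10.1% as higher and 6.88% as lower. The members were Ndufa3, Ndufa7, Ndufa8, Ndufc1 and Ndufc2 of complex I, Uqcr11, Cox4i2, Cox6b1 and Cox6c, and Atp5g1 and Atp5h. The number called was 2 without C57BL/6J control 24 h replicate 1 or without DBA/2J normoxia replicate 2, and 40 without DBA/2J control 24 h replicate 2, and it was negative for each call in all 12 of these fits. A replicate block lowered the number called and library totals raised it, as given further below. In the same test, both distal convoluted tubule markers were called negative (Slc12a3 -1.50, SE 0.25, and Pvalb -1.51, SE 0.33), as were 2 of 8 proximal tubule markers (Slc27a2 and Slc22a30, list median -0.40). Of 8 pericyte and smooth muscle markers, Rgs5 (-1.36, SE 0.18), Notch3, Abcc9 and Acta2 were called negative and Kcnj8 positive (1.11, SE 0.32), with a list median of -0.93. Fibroblast Dcn (-1.33, SE 0.17) and the immune markers Adgre1 (-1.22, SE 0.25) and Cd68 (-0.59, SE 0.13) were also called negative. The loop of Henle, principal and intercalated cell lists had medians of -1.11, -0.32 and -0.24 and the podocyte and endothelial lists 0.02 and 0.07, all with 0 calls. The part of these cells in the members' differences was not tested. For normoxia-hyperoxia against the 24 h controls, Cox6c was called (1.43% of all genes called, 0.95% as higher and 0.481% as lower), and between the oxygen conditions Uqcrc2 (18.2% of all genes called, 7.2% as higher and 11% as lower), and each of these counts was 0 without DBA/2J normoxia-hyperoxia replicate 2. The Cox6c call was lost in 9 of 12 fits without a library and the Uqcrc2 call in 7. The counts depended on the setting. The first comparison had 15 calls with no filter, 9 with DESeq2 and 0 with library totals. The second had 8 with DESeq2, 7 with a replicate block and 0 with library totals, no filter or all 48 libraries. All calls under these settings were negative. No marker was called in the first comparison. In the second, 4 of 4 immune, 2 of 8 proximal tubule, 2 of 8 pericyte and smooth muscle, 1 of 4 endothelial and 1 of 3 fibroblast markers were called, all positive.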

How the data were processed

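RNA-seq was done on 48 cultured kidney slice samples, in 16 groups of 3 by strain and condition. The deposited table holds whole-number read counts per gene, not normalized. Per the submitters' processing notes, the tools included bcl2fastq 2.20.0, FastQC 0.11.8, STAR 2.7.9a and featureCounts 1.5.1, with the build GRCm38. The strand setting and annotation release are not given in the sources used here.

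From these counts, edgeR 4.0.16 (R 4.3.3) was run with TMM factors, filterByExpr and the robust quasi-likelihood F test, on the 12 libraries of the 4 groups of each comparison, with Benjamini-Hochberg adjustment over all genes tested. The SE was computed as the log2 fold change over the square root of F. Exon lengths, gene positions and types came from GENCODE M21 (GRCm38). The test was checked on simulated counts. There were 17 comparisons, and no adjustment was made across them.

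The members and gene lists were chosen with earlier results of these data known. Genes were named by a rule: the catalytic and structural core, isoforms and paralogues, the largest called change in each complex, the smallest p in strain comparisons, and members going against the majority. Atp5if1, also on that list, was not found under this symbol. For 1 member named by the rule, single values are not reported here, though it is in the counts, sums and medians. Other genes of the lists, and Ndufa7, Ndufa10, Ndufab1, Atp5l and the not-called Atp5k, Cox7b and Atp5e, were chosen after their values were seen. Alternatives were RLE factors, library totals alone, TMM without mitochondrial-genome genes, no filter, DESeq2 1.42.0, a replicate block, 1 fit of all 48 libraries and leaving out each library. Figures were drawn with matplotlib 3.10.9 (Python 3.11.15, pandas 2.3.3, numpy 2.4.6).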

Additional observations from a re-analysis of the deposited data

Results flagged for a closer look

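For 13 values, the response of a member differed between the strains by a test of the difference itself, given here as the DBA/2J minus the C57BL/6J log2 fold change (edgeR, adjusted over all genes). The 9 fits over both strains behind these and the other comparisons are not independent, since they share libraries.

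For normoxia against the 24 h controls, Cox4i2 differed most, with -1.853 (SE 0.47, adjusted p = 0.016), and its DBA/2J normoxia libraries held 11, 5 and 8 counts. The pericyte and smooth muscle markers had a median difference of -0.93 in the same test, with 4 of 8 called negative and 1 positive, and their part in the value for Cox4i2 was not tested. In complex I, the difference was -0.6014 for Ndufc1 (SE 0.16), -0.5876 for Ndufc2 (SE 0.15), -0.5441 for Ndufa3 (SE 0.15), -0.4232 for Ndufa8 (SE 0.11) and -0.3656 for Ndufa7 (SE 0.12). Uqcr11 of complex III had -0.4799 (SE 0.16). In complex IV, Cox6b1 had -0.4628 (SE 0.14) and Cox6c -0.4649 (SE 0.14). In complex V, Atp5g1, a copy of the c-ring gene, had -0.559 (SE 0.16), and Atp5h, a stalk subunit gene, -0.5542 (SE 0.17). Adjusted p ran from 0.014 for Ndufc2 to 0.049 for Uqcr11. Leaving out each library was tried for the 5 genes with the smallest p. In these 12 fits no call was lost for Ndufc2 and Cox4i2, while the call was lost in 4 of 12 fits for Ndufc1 and for Ndufa3 (adjusted p up to 0.0595 and 0.067, both without C57BL/6J control 24 h replicate 1) and in 2 of 12 for Ndufa8 (up to 0.055, without DBA/2J normoxia replicate 2). Apart from Cox4i2, which fell in both strains, all these genes rose on average of both strains, and by less in DBA/2J.

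For normoxia-hyperoxia against the 24 h controls, Cox6c had -0.5565 (SE 0.12, adjusted p = 0.036). For normoxia-hyperoxia against normoxia, Uqcrc2 had -0.4267 (SE 0.12, adjusted p = 0.024), a larger fall in DBA/2J.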

How the results depend on the processing

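Under every alternative the members' split kept its direction in the comparisons of time (88 to 89 called when each library was left out), normoxia (87 to 89), normoxia-hyperoxia (84 to 87) and between the oxygen conditions (73 to 79). Against 6 h controls, normoxia gave 30 to 46. Scaling by library totals moved the median of all genes from -0.02 to 0.19 for time, 0.05 to -0.22 for normoxia and 0.00 to -0.17 for normoxia-hyperoxia, with 81 members then lower, 84 higher and 76 higher. The summed levels moved by more than 1 SD in some groups. With library totals, C57BL/6J had 10770 CPM in 24 h controls, 20410 under normoxia and 17010 under normoxia-hyperoxia, and DBA/2J 13870 in 24 h controls. With mitochondrial-genome genes left out of the scaling, C57BL/6J had 23720 at 6 h, 11210 at 24 h, 24770 under normoxia and 20150 under normoxia-hyperoxia, and DBA/2J 23470, 13950, 26350 and 19550. Strain results moved more. The strain difference in the change with time had 0 calls, and 2 with no filter, 1 with DESeq2 and 1 with all 48 libraries (0 to 1 leaving out a library). DBA/2J against C57BL/6J at 6 h had 12 calls with library totals (1 to 17 leaving out a library), and at 24 h 11 to 56. The strain difference under normoxia had 25 calls with library totals, 18 without mitochondrial-genome genes and 18 with DESeq2 (2 to 40). That under normoxia-hyperoxia had 0 with library totals, 15 with no filter and 9 with DESeq2 (0 to 6). That between the oxygen conditions had 0 with library totals, no filter or all 48 libraries and 8 with DESeq2 (0 to 3). DBA/2J against C57BL/6J under normoxia had 15 with all 48 libraries (18 to 34), and under normoxia-hyperoxia 5 to 13. Tunicamycin at 24 h had 2 calls with DESeq2 (1 to 1), and the other drug comparisons 0 to 0. Signs turned for Cox6a2 with time (-0.042 without DBA/2J control 24 h replicate 1, and 0.40 at most when another library was left out) and, with library totals, for Cox6b2 (-0.12) and Cox7a2l (-0.10) under normoxia. The causes were not tested. Library totals moved the share of higher calls among all genes from 48.1% to 60.4% for time, 51.6% to 41.5% for normoxia and 50% to 39% for normoxia-hyperoxia.

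Replicate numbers were shared between groups, and the labels name no shared source. Correlations of the deviations of same-numbered libraries ran from -0.14 to 0.37. At most 5 of 6 pairs exceeded 0.1, in normoxia and in tunicamycin at 6 h, each against 6 h controls. In DBA/2J all 3 pairs exceeded 0.1 for tunicamycin at 24 h (0.21, 0.22 and 0.20) and between the oxygen conditions (0.30, 0.13 and 0.25). Of 12 libraries, each with 3 to choose from, 12 were closest to their own number in normoxia against 6 h controls. The number was 10 for tunicamycin at 6 h, and 9 for tunicamycin at 24 h and cyclosporin A at 6 h. It was also 9 for normoxia-hyperoxia against 24 h controls and against normoxia, and 6 or 4 in the other fits. Whether same-numbered libraries share a source was not tested, and the main p-values leave pairing out. With a replicate block, tunicamycin at 24 h had 5 calls, the strain difference under normoxia 6, that between the oxygen conditions 7 and DBA/2J against C57BL/6J under normoxia-hyperoxia 16. Genes at a few counts, such as Cox4i2 in DBA/2J and Cox6a2, are limited by depth.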
